A study of Mus musculus with 12 samples.

Results

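The genes described here are those of the cytosolic ribosomal proteins, measured in polarized mouse macrophages. They were taken by name: every feature named Rpl or Rps plus a digit, and Rplp0, Rplp1, Rplp2 and Rpsa, also where such a name is one part of a joined feature name, leaving out the Rps6k kinases and names that mark pseudogenes. This gave 87 of the 19549 features, 54 of the large subunit, 32 of the small subunit, and Rps19bp1, a binding partner of Rps19 that the name takes in and that is not a ribosomal protein. In 8 cases a member shares its counts with a neighbour or copy in the annotation (Rpl32 with Cand2, Rps25 with Ccdc84, Rps27a with Clhc1, Rpl5 with Fam69a, Rpl31 with Tbc1d8, Rpl34 with Rpl34-ps1, Rpl35 with Wdr38, and Rps27 with Rps27rt), and these held 5.93 to 13.1% of the member reads of a library. Of the 87, 84 passed the filter on low counts and were tested among 10421 features: 51 of the large subunit, 32 of the small and Rps19bp1.

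The cells were macrophages grown from the bone marrow of untreated female FVB mice, an inbred strain, and polarized for 4 h with 200 units/mL of IFNG (interferon gamma) or with 40 ng/mL of IL4 (interleukin 4). A part of each cell population, about 10%, gave total mRNA, and from the rest the messages carrying more than 3 ribosomes were collected after a sucrose gradient and are called polysome-associated mRNA. There were 4 groups of 3 libraries (IFNG total, IL4 total, IFNG polysome, IL4 polysome), 12 in all, with no unpolarized cells, so each polarization difference is IFNG relative to IL4. Separate mice or cultures are not stated for the replicates, so the p-values measure the spread between these libraries only, and that spread may be technical.

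The ribosome is built from a small subunit, which reads the message, and a large subunit, which joins amino acids, and each holds one copy of most of its proteins next to the ribosomal RNA. The stalk proteins Rplp0, Rplp1 and Rplp2 form the part of the large subunit that recruits the elongation factors. Messages of ribosomal proteins begin with a run of pyrimidines, the terminal oligopyrimidine (TOP) tract, through which mTOR signalling and the binding protein Larp1 control whether they are loaded with ribosomes or held back. Macrophages change their protein synthesis as they polarize, and these messages are among the most abundant that a growing cell makes.

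The sequence around the transcription start is where a TOP tract would lie, so the start windows of members on which the results turn are shown first. Promoter windows from RefSeq (GRCm38.p6, the assembly that mm10 stands for) were matched for 66 of the ribosomal protein members. Each line gives 30 bases on the gene's strand, 15 before and 15 from the annotated start, with every CTTTC, the pyrimidine core searched for, in capitals. Rpl4, Rpl6, Rps9 and Rps4x are members that were not called lower on polysomes in either polarization, Rpl41, Rpl39 and Rps2 are 3 of those with the largest decreases, and Rpl35, Rpl7a, Rps26 and Rps27 are examples that hold the core.
Rpl4: ttccttttcctgtgggagcagccgggtaga
Rpl6: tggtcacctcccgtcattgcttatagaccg
Rps9: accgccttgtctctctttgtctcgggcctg
Rps4x: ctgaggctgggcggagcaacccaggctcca
Rpl41: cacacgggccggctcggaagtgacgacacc
Rpl39: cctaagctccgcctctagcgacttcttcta
Rps2: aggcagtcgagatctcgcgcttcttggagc
Rpl35: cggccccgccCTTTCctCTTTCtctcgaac
Rpl7a: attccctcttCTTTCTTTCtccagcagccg
Rps26: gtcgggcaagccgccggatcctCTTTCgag
Rps27: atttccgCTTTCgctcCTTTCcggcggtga
These windows lie at chr9:64173372-64173401 (Rpl4, plus), chr5:121204486-121204515 (Rpl6, plus), chr7:3704026-3704055 (Rps9, plus), chrX:102189377-102189406 (Rps4x, minus), chr10:128549154-128549183 (Rpl41, minus), chrX:37085208-37085237 (Rpl39, minus), chr17:24720048-24720077 (Rps2, plus), chr2:39005117-39005146 (Rpl35, minus), chr2:26910792-26910821 (Rpl7a, plus), chr10:128626492-128626521 (Rps26, minus) and chr3:90213634-90213663 (Rps27, minus), on the strand given with each name. CTTTC on the gene's strand within 40 bases of an annotated start was found for 30 of the 66 matched members (45.5%), against 11.9% of 27025 genes. Its reverse complement, GAAAG, in the same window was found for 13.6% of the members and 11.5% of all genes. CTTTC was present for 57.1% of 42 large-subunit genes and for 6 of 24 small-subunit genes. CCGGAAG, a core of the sites bound by ETS and GABP factors, searched on both strands of the whole window of 300 bases, was present for 39.4% of the members and 9.93% of all genes. These are matches of letters near annotated starts, which may differ from the starts used in macrophages. Only the exact string CTTTC was counted, so other runs of pyrimidines were missed.

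Of all counted reads in total mRNA, the ribosomal protein genes took 3.59, 4.68 and 5.28% with IFNG (replicates 1 to 3) and 6.35, 7.75 and 7.46% with IL4. In the polysome libraries they took 2.06, 1.17 and 0.569% with IFNG and 2.43, 3.12 and 2.28% with IL4. The share was thus lower on polysomes than in total mRNA in every library of either polarization, and the IFNG polysome library of replicate 3 had the lowest of all. The total count of a library was between 2563955 and 22014162, and the lowest member count, that of IFNG polysome replicate 3, was 18163 reads. Lars2 encodes the mitochondrial leucyl-tRNA synthetase and is given here because of its values. With IFNG it held 1.78, 12.8 and 29.3% of the polysome reads, with IL4 between 5.15 and 18.1%, and in total mRNA at most 2.00%. Its share was highest in the library where the members' share was lowest, and its part in the members' levels was not tested beyond leaving it out. All 10 macrophage markers present in the files (Csf1r, Cd68, Itgam and others) had reads, with a summed level of 7969 to 21456 CPM (counts scaled to a common library size). Markers of T and NK cells, erythroid cells, and mast cells with basophils summed to at most 0.465 CPM, and those of B cells, neutrophils, dendritic and stromal cells to at most 43.3 CPM. Some of these differed by polarization. The dendritic cell markers, 5 of 6 with reads and Flt3 at 0, summed to 6.09 to 26.3 CPM with IFNG and 0.542 to 1.13 with IL4 in total mRNA, and to 22.2 to 43.3 and 0.901 to 1.56 CPM on polysomes. The neutrophil markers, 8 of 8 with reads, summed to 8.71 to 32.8 CPM with IFNG and 1.54 to 4.46 with IL4 in total mRNA, and to 3.88 to 7.28 and 0.721 to 4.00 CPM on polysomes. Their part in the differences of the members between IFNG and IL4 was not tested.

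**Figure D1:**
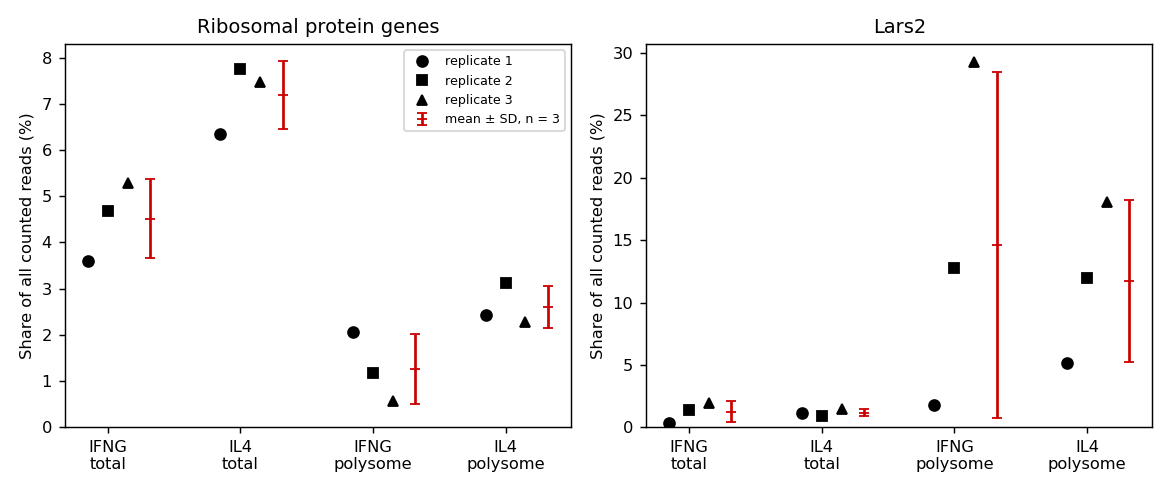
Share of all counted reads (%, y axis) taken by the ribosomal protein genes (left) and by Lars2 (right) in the 12 libraries, by group (x axis). Symbols are single libraries by replicate number and the red mark is the mean ± SD of 3. The members' share is lower in all 6 polysome libraries than in all 6 total libraries, and Lars2 reaches 29.3% in IFNG polysome replicate 3.

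Polysome-associated and total mRNA were compared within each polarization to ask how the ribosomal protein messages were distributed between the whole cell and the heavy polysomes. Most were lower on polysomes in both. With IFNG, 73 of the 84 tested members were lower and 0 higher, against 17.0% of all tested features called lower and 8.93% called higher by edgeR's quasi-likelihood test at an adjusted p of 0.05. With IL4, 64 were lower and 0 higher, against 15.9% lower and 13.2% higher over all features. The members' median log2 fold change was -2.27 with IFNG, where the median of all features was 0.00, and -1.67 with IL4, where it was 0.06. All 3 polysome libraries lay below all 3 total libraries for 76 members with IFNG (no overlap of this direction in 18.8% of all features) and for 69 with IL4 (25.7%). In the other direction 0 members lay without overlap, against 17.4% of all features with IFNG and 23.4% with IL4. Levels are relative to each library's other messages. For differences between the polarizations in such bulk samples, fewer cells of a type and less RNA per cell cannot be told apart.

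The 64 members called lower with IL4 were all among the 73 called lower with IFNG. Across the 84 members, the fold changes of both polarizations, which come from separate libraries, had a Pearson r of 0.94 and a Spearman rho of 0.88, given as a description since members share libraries and depth. Leaving out each library in turn gave 61 to 75 members lower with IFNG and 42 to 67 with IL4. The 42 came from leaving out IL4 total replicate 2 and also from leaving out IL4 polysome replicate 1. The 6 settings of normalization, filter, depth and test tried gave 71 to 76 lower members with IFNG and 63 to 67 with IL4. Shares of all features called lower in these alternative fits are not given here, so the ranges are not set against a background.

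**Figure D2:**
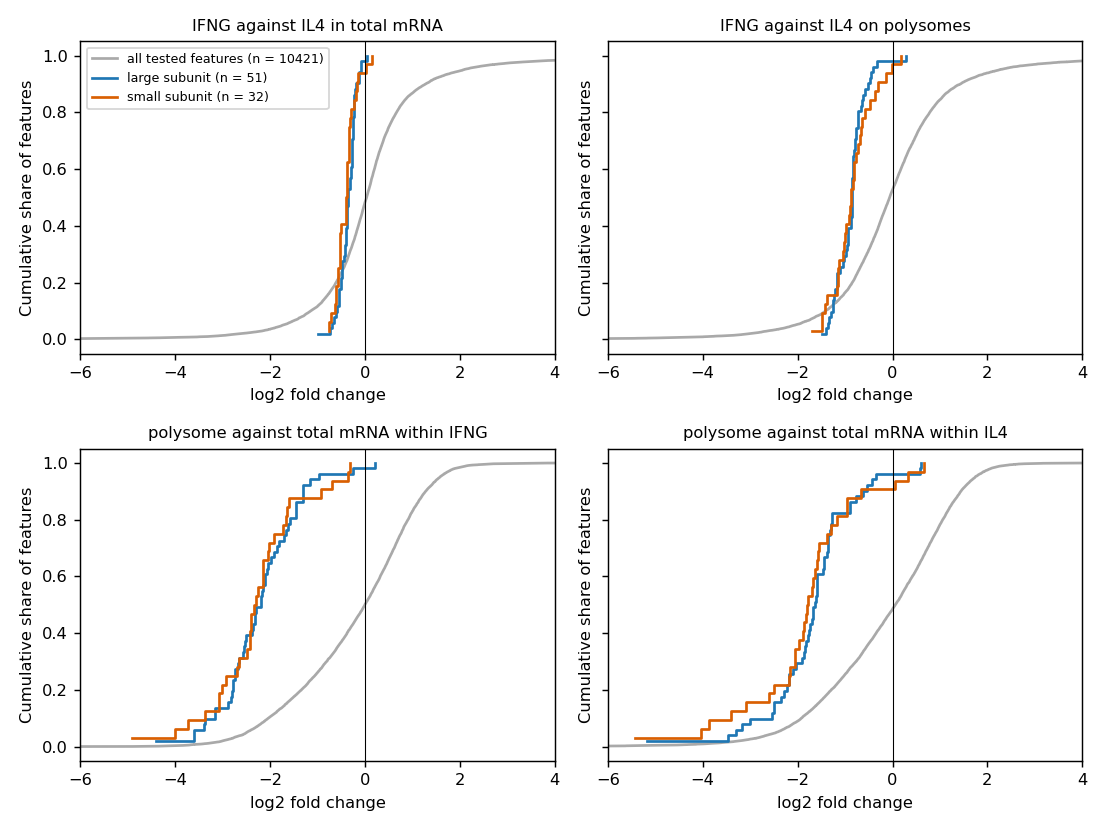
Cumulative share of features (y axis) by log2 fold change (x axis, shown from -6 to 4) in 4 comparisons, for all 10421 tested features (grey), 51 large-subunit genes (blue) and 32 small-subunit genes (orange). In polysome against total mRNA the member curves lie left of the grey curve (medians -2.20 and -2.32 with IFNG against 0.00), and in IFNG against IL4 they lie left by less.

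Among the stalk proteins, Rplp0, the protein that anchors the stalk to the ribosome, had 3588, 2930.0 and 1766 CPM in the IFNG total libraries and 409, 178 and 210.2 CPM in the IFNG polysome libraries (replicates 1 to 3, in this order throughout). With IL4 the values were 4355, 3936 and 2777 CPM in total mRNA and 419, 393 and 304 CPM on polysomes. The fractions did not overlap in either polarization, and Rplp0 was 10.4-fold (log2 -3.38 ± 0.47, SE; edgeR's adjusted p = 0.000124) lower on polysomes with IFNG and 9.91-fold (log2 -3.31 ± 0.47, SE; edgeR's adjusted p = 0.000116) lower with IL4. Rplp1, which pairs with Rplp2 on the stalk, was 877, 1129 and 681 CPM against 111, 56.3 and 54.3 CPM with IFNG, a log2 fold change of -3.60 ± 0.49 (SE; edgeR's adjusted p = 0.000106). Rplp2 changed less, -2.67 with IFNG and -1.84 with IL4, and passed the threshold in both. So the 3 stalk genes all fell, each by more than the member median.

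The members lowest on polysomes included genes of some of the shortest ribosomal proteins. Rpl41, which encodes an exceptionally short basic peptide of the large subunit, was 1495, 2353 and 1709.5 CPM in IFNG total mRNA and 127, 70.2 and 62.8 CPM on IFNG polysomes. With IL4 it was 2334, 3221 and 2216 CPM in total mRNA and 95.5, 67.6 and 51.1 CPM on polysomes. That is 21.3-fold (log2 -4.41 ± 0.48, SE; edgeR's adjusted p = 2.95e-05) lower with IFNG and 36.2-fold (log2 -5.18 ± 0.50, SE; edgeR's adjusted p = 4.75e-06) lower with IL4, with every polysome library far below every total library. Rps27l, a paralog of Rps27 known as a p53 target, was 843, 872 and 928 CPM in IFNG total mRNA and 71.9, 7.78 and 6.65 CPM on IFNG polysomes, where replicate 1 stood above the other two. With IL4, Rps27l was 1351, 1356 and 1115 CPM in total mRNA and 37.2, 28.7 and 21.9 CPM on polysomes, and its log2 fold changes, -4.91 with IFNG and -5.44 with IL4, were the lowest of all tested members. Rps29, a small zinc-binding protein of the small subunit's head, was 829.8, 1204 and 1328 CPM in total and 104, 60.3 and 44.0 CPM on polysomes with IFNG, a log2 fold change of -4.01 ± 0.49 (SE; edgeR's adjusted p = 4.24e-05). Its IL4 values were 1079, 1762 and 952 CPM and 74.8, 103 and 52.2 CPM, a log2 fold change of -4.04 ± 0.49 (SE; edgeR's adjusted p = 3.81e-05).

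Rpl39, a short protein that lines the exit tunnel for the growing chain, was 269, 519 and 437 CPM in IFNG total mRNA against 72.9, 21.9 and 4.43 CPM on IFNG polysomes, a log2 fold change of -3.60 ± 0.65 (SE; edgeR's adjusted p = 0.000843). With IL4 it was 650.5, 714 and 557 CPM against 61.0, 75.4 and 38.2 CPM, a log2 fold change of -3.46 ± 0.64 (SE; edgeR's adjusted p = 0.00119). Both pairs of groups stood apart without overlap. Rps2 lies near the entry of the message channel, and its feature held 38.0, 43.4 and 57.0 CPM in total mRNA against 6.52, 1.68 and 1.11 CPM on polysomes with IFNG, a log2 fold change of -3.74 ± 0.53 (SE; edgeR's adjusted p = 0.00013). The polysome value of replicate 3 lies near the level of 3 counts in that library (0.941 CPM before TMM scaling), so the size of this decrease rests on few reads. The Rps27 feature, shared with its copy Rps27rt, fell by 3.37 on the log2 scale with IFNG and by 3.41 with IL4, and Rps28, another small protein of the message exit, fell by 3.01 and 3.09. All of these passed the threshold in both polarizations by edgeR's adjusted p, as did Rpl32 (with Cand2) and Rpl15. Coding lengths were not used here, so a relation of these values to length was not tested.

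**Figure D3:**
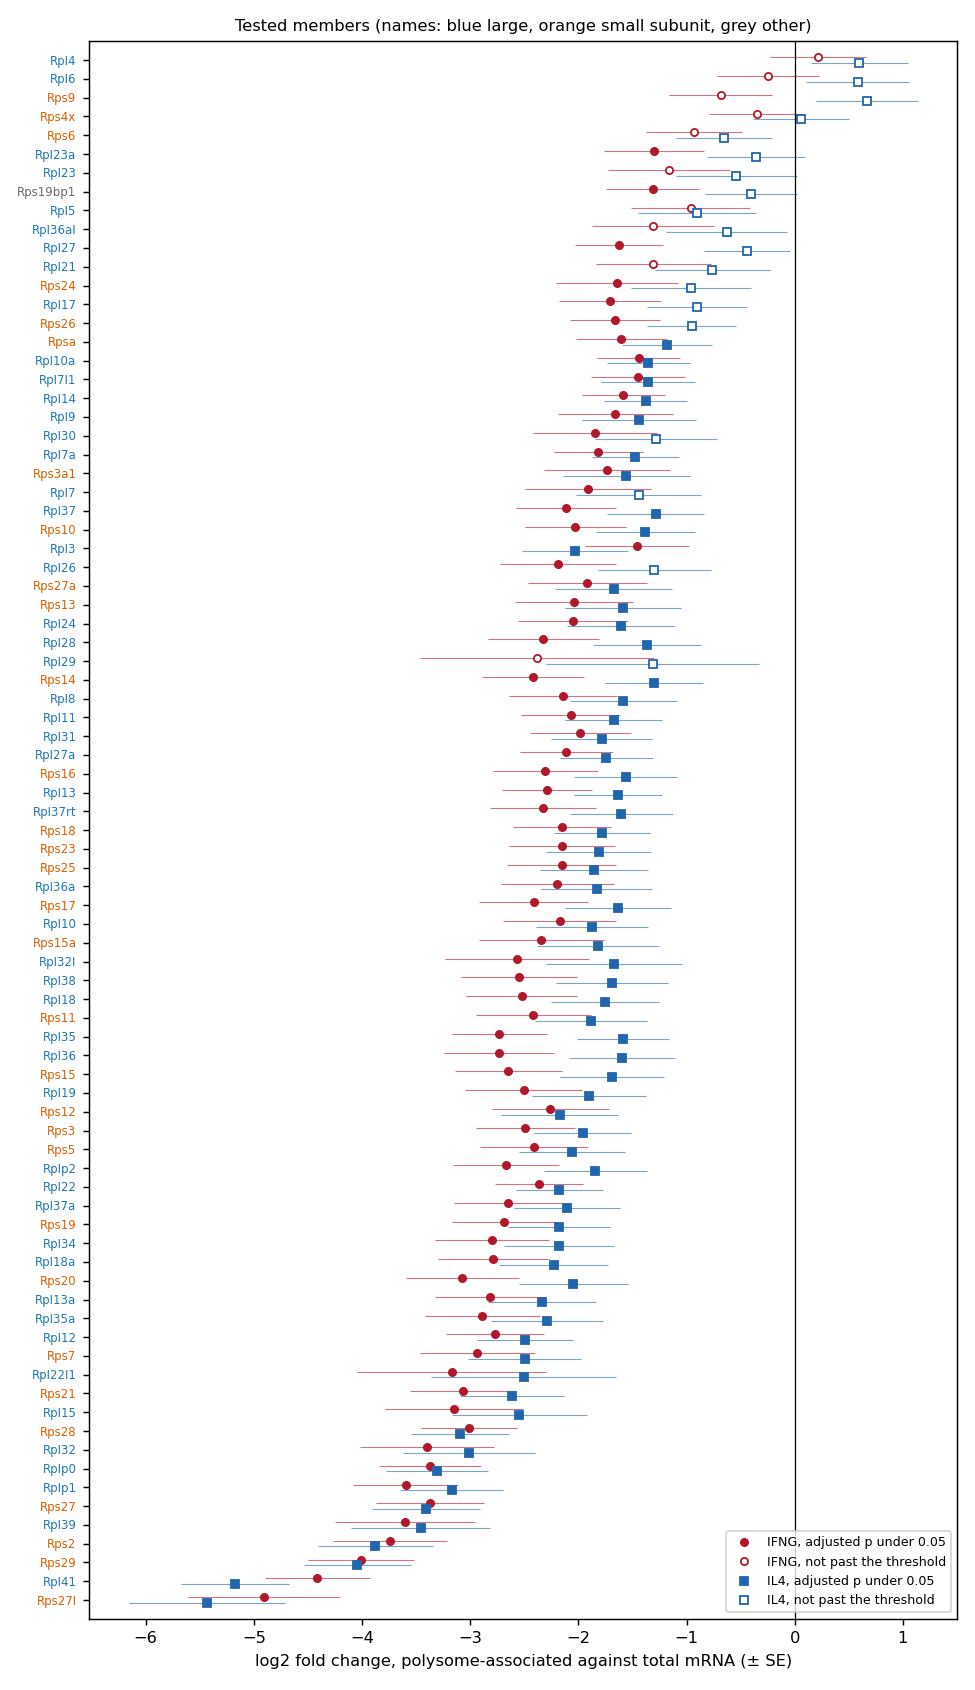
Log2 fold change of polysome-associated against total mRNA (x axis, ± SE) for 83 of the 84 tested members (y axis, sorted by the mean of both polarizations), IFNG as red circles and IL4 as blue squares, filled where edgeR's adjusted p is under 0.05. The members run from -4.91 and -5.44 for Rps27l at the foot to 0.22 and 0.60 for Rpl4 at the top, with large- and small-subunit genes mixed along the order.

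Among the members called in neither polarization, Rpl4, Rpl6 and Rps4x had polysome values that overlapped those in total mRNA in both, as did Rpl5, Rpl23 and Rpl36al. Rpl4, a large-subunit protein with a loop in the exit tunnel, was 199.6, 172 and 463 CPM in IFNG total mRNA and 282, 387 and 301 CPM on IFNG polysomes. With IL4, Rpl4 was 242, 412 and 574 CPM in total mRNA and 479, 627 and 753 CPM on polysomes, and the fractions overlapped in both polarizations. Its log2 fold changes were 0.22 (edgeR's adjusted p = 0.746) with IFNG and 0.60 (adjusted p = 0.316) with IL4. Rpl6, a large-subunit protein on the ribosome's surface, was 696, 776 and 987 CPM in IFNG total mRNA and 409, 1132 and 529 CPM on IFNG polysomes, with replicate 2 far above the others. Its IL4 values were 1007, 1161 and 1053 CPM in total mRNA and 678, 1602 and 2546 CPM on polysomes, spread from below to above the total libraries.

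Rps4x, an X-linked small-subunit protein, was 199, 294 and 568 CPM in IFNG total mRNA and 253, 315 and 264 CPM on polysomes, and 356, 644 and 789 CPM and 431, 681 and 750.4 CPM with IL4. Its polysome and total values overlapped within each polarization. Rps6, the small-subunit protein that S6 kinases phosphorylate, had log2 fold changes of -0.93 and -0.66, with edgeR's adjusted p of 0.123 and 0.264. Rpl5, which together with Rpl11 can bind Mdm2, had -0.96 and -0.90 and did not pass, while Rpl11 fell by 2.07 and 1.67 and passed in both. In all, 11 members were called in neither polarization, among them Rpl4, Rpl5, Rpl6, Rpl36al, Rps4x, Rps6 and Rps9, and also Rpl21, Rpl23 and Rpl29, which are named after their values were seen. Rpl29 had under 2 CPM in every library. With IFNG it was 0.951, 1.40 and 1.64 CPM in total mRNA and 0.0881, 0.42 and 0.369 CPM on polysomes, without overlap, a log2 fold change of -2.38 ± 1.08 (SE; edgeR's adjusted p = 0.106).

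To describe the spread among members directly, the fit was repeated with each library's size set to its summed member reads, so that a value says how a gene moved against the other ribosomal protein genes. On this scale most other features rise by construction: 69.6% of all features were called higher and 0.796% lower on polysomes with IFNG, and 53.9% and 1.77% with IL4. Among the members, 8 were higher and 9 lower with IFNG, and 6 were higher and 10 lower with IL4. With so many features called, the adjustment over all features changes p little, so these calls are close to unadjusted ones. At an unadjusted p under 0.05, 8 members were higher and 10 lower with IFNG, and 8 higher and 11 lower with IL4. The 6 members higher with IL4, with Rpl4, Rpl6, Rpl23a, Rps4x and Rps9 among them, were among the 8 higher with IFNG, which also held Rps6 and Rpl5. Of the members lower, 8 were shared, 88.9% of the IFNG list and 80.0% of the IL4 list: Rpl32, Rpl39, Rpl41, Rplp1, Rps2, Rps27, Rps27l and Rps29. Rpl15 passed with IFNG and not with IL4, and Rplp0 and Rps28 passed with IL4 and not with IFNG, while the difference between the polarizations passed for 0 members on this scale (edgeR, 0 also at an unadjusted p under 0.05). Rpl23a stood at the threshold, with an adjusted p by edgeR of 0.0472 with IFNG and 0.0477 with IL4. With IL4 it lost its call in 9 of 15 alternatives (adjusted p 0.0216 to 0.493), and its relative log2 fold change of 1.18 became 0.50 when IL4 polysome replicate 3 was left out. Calls were also lost for Rps6 in 4, Rpl32 in 3 and Rps2 in 1 of 15 alternatives with IFNG, and for Rps4x in 1 with IL4.

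In relative terms Rpl4 rose by 2.60 ± 0.56 (SE) on the log2 scale with IFNG (edgeR's adjusted p = 1.62e-05) and by 2.11 ± 0.55 with IL4 (adjusted p = 0.000531). Per 1000 member reads, Rpl4 held 3.98, 3.02 and 8.59 in IFNG total mRNA and 17.6, 32.2 and 44.9 on IFNG polysomes, and with IL4 3.49, 5.22 and 9.85 and 26.1, 22.1 and 31.8. These do not overlap in either polarization. Rps9 rose by 1.69 and 2.21, Rpl6 by 2.11 and 2.09, and Rps4x by 2.05 and 1.56. At the other end Rpl41 held 29.8, 41.4 and 31.7 per 1000 member reads in IFNG total mRNA and 7.98, 5.84 and 9.36 on IFNG polysomes, and 33.7, 40.9 and 38.0 and 5.21, 2.39 and 2.16 with IL4. Its relative log2 fold change was -2.15 with IFNG and -3.53 with IL4. Leaving out IFNG polysome replicate 1 gave 17 lower members with IFNG, and leaving out IFNG polysome replicate 2 gave 4. There were 5 higher members when IFNG total replicate 2 was left out.

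**Figure D4:**
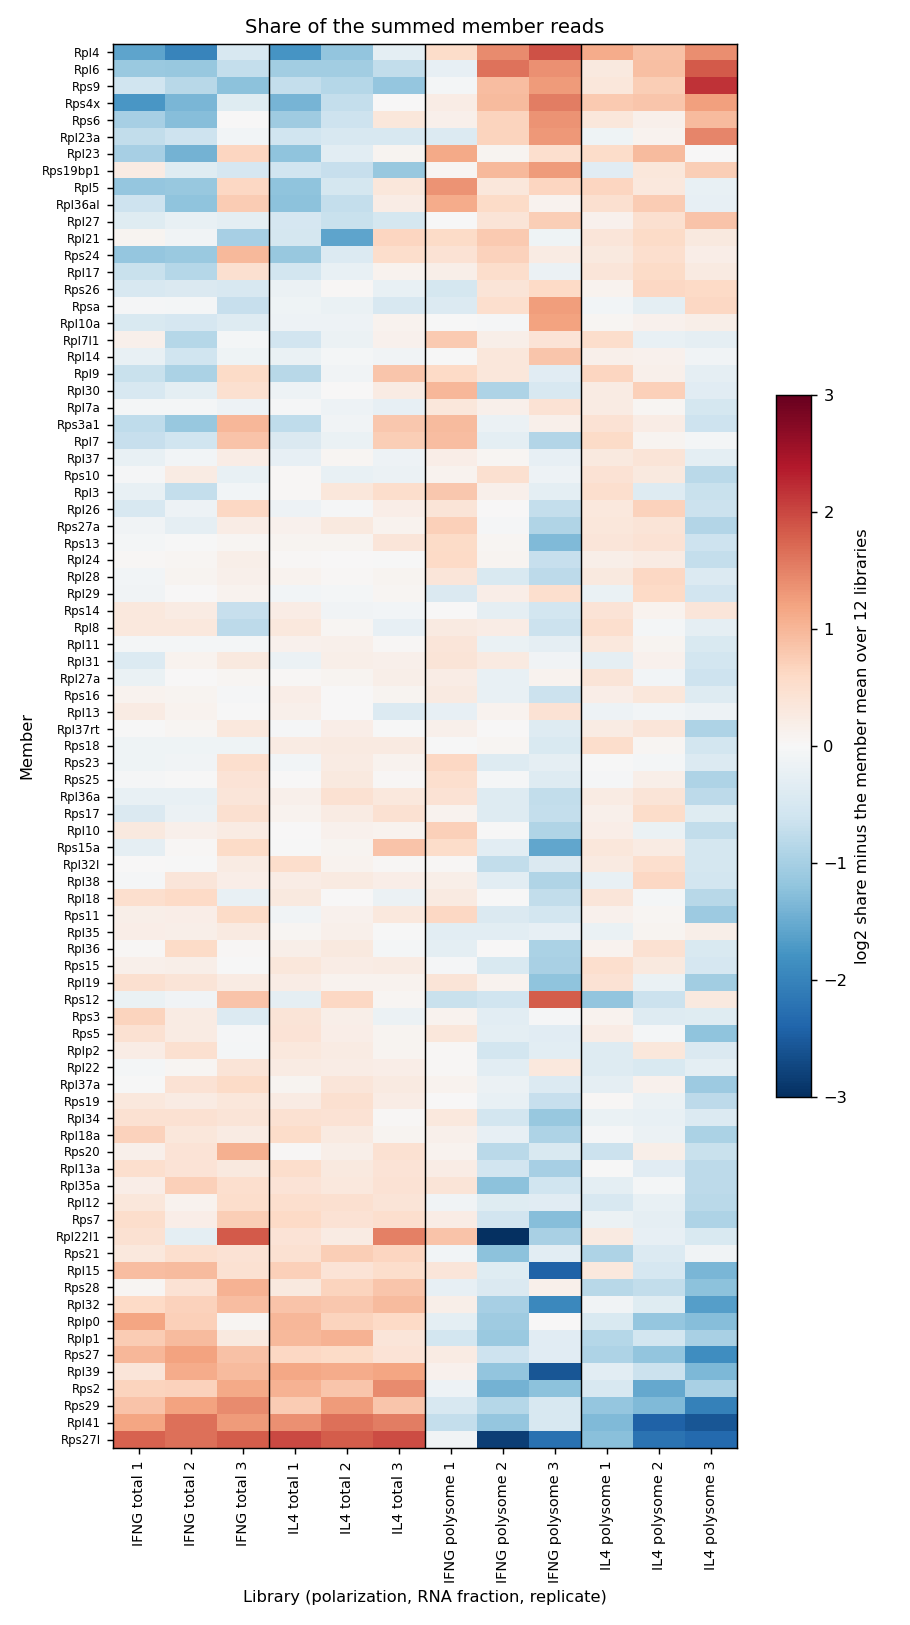
Composition of the ribosomal protein reads: colour is the log2 of a member's reads per 1000 member reads (plus 0.05) minus its mean over the 12 libraries, from -3 (blue) to 3 (red), with 83 of the 84 tested members as rows (same order as the plot of polysome fold changes) and libraries as columns. Rpl4, Rpl6, Rps9 and Rps4x at the top are red in most polysome libraries, Rps27l, Rpl41, Rps29 and Rps2 at the foot are blue there, and most rows between are pale.

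IFNG and IL4 were then compared in total mRNA. The ribosomal protein genes were a little lower with IFNG, but none passed the test. Of 84 members 0 were called in either direction by edgeR, and 0 by DESeq2, against 3.93% of all features called lower and 7.08% higher by edgeR. At an unadjusted p under 0.05 there was 1, lower (1.19%), against 9.26% of all features. The log2 fold change was below 0 for 80 members, with a median of -0.37 and a standard deviation among members of 0.20, against a median of 0.04 and a standard deviation of 1.42 over all features. The groups did not overlap for 21 members, all lower with IFNG, against 12.3% of all features without overlap in that direction and 13.4% in the other. Between libraries of the same number, 80, 80 and 46 of the 84 members were lower with IFNG for numbers 1, 2 and 3.

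The member lowest in this comparison was Rpl3, a large-subunit protein close to the peptide-forming centre. It was 348, 281 and 413 CPM with IFNG and 571, 807 and 685 CPM with IL4, so that all 3 IFNG values lay below the IL4 values. The difference was a log2 fold change of -0.99 ± 0.47 (SE; edgeR's adjusted p = 0.231), and did not pass. The highest was Rps19bp1, 151, 111 and 95.2 CPM against 114, 121 and 65.6 CPM, with overlapping groups and a log2 fold change of 0.25. Rpl13a, known from the complex that silences certain messages after IFNG, was 1082, 1157 and 1005 CPM with IFNG and 1533, 1481 and 1181 CPM with IL4, a log2 fold change of -0.37 ± 0.48 (SE; edgeR's adjusted p = 0.786). Relative to the summed members, 0 of 84 were called in total mRNA (edgeR; 0 also at an unadjusted p under 0.05), against 2.32% of all features lower and 8.99% higher. Leaving out each library moved the members' median between -0.55 and -0.27.

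On polysomes nearly all members had a lower mean with IFNG, and 6 passed the test. These were Rps9, Rps14, Rps15, Rps26, Rpl27 and Rpl35 (with Wdr38), all lower with IFNG, and 0 were higher. The 6 are 7.14% of the members, against 6.58% of all features called lower and 7.54% called higher, so the share called was close to the background. The median log2 fold change of the members was -0.86, that of all features -0.06, and 82 of 84 members were below 0. At an unadjusted p under 0.05, 29 members were lower (34.5%), against 13.7% of all features. The groups did not overlap for 21 members, all lower, against 16.0% of all features in that direction and 15.2% in the other. Libraries of the same number gave 43, 83 and 82 of 84 members lower with IFNG for numbers 1, 2 and 3, so replicate 1 showed no common direction.

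Rps9, which lies where the message enters the ribosome, was 624, 920.5 and 662 CPM on IFNG polysomes and 939, 1912 and 4283 CPM on IL4 polysomes. All IFNG values were below the IL4 values, which spread widely and peaked in replicate 3, and the difference was a log2 fold change of -1.69 ± 0.48 (SE; edgeR's adjusted p = 0.0212). In total mRNA Rps9 was 1329, 1285 and 932 CPM with IFNG and 1692, 1744 and 1057 CPM with IL4, with overlap. Rps14, a small-subunit protein of the platform, linked to a deletion syndrome of the blood, was 456, 282 and 131 CPM against 698, 863 and 874 CPM on polysomes, a log2 fold change of -1.49 ± 0.46 (SE; edgeR's adjusted p = 0.0325). Rps15 was 266, 147 and 57.6 CPM against 444, 589 and 283 CPM, again without overlap, a log2 fold change of -1.48 ± 0.48 (SE; edgeR's adjusted p = 0.0397). Rps26, which sits at the message exit, was 190.1, 269 and 175 CPM against 339, 745 and 611 CPM, a log2 fold change of -1.42 ± 0.41 (SE; edgeR's adjusted p = 0.0235).

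In the large subunit, Rpl27 was 262, 261 and 185 CPM on IFNG polysomes and 333, 660.4 and 708 CPM on IL4 polysomes, a log2 fold change of -1.26 ± 0.40 (SE; edgeR's adjusted p = 0.038). Rpl35, near the tunnel exit, was 344, 261 and 151 CPM against 426, 803 and 715 CPM, a log2 fold change of -1.36 ± 0.42 (SE; edgeR's adjusted p = 0.0336). For both genes every IFNG library lay below every IL4 library. The member with the highest log2 fold change was Rpl41, 127, 70.2 and 62.8 CPM against 95.5, 67.6 and 51.1 CPM (0.28), with overlapping groups. Relative to the summed members 0 were called in either direction on polysomes (edgeR; 2 higher at an unadjusted p under 0.05, Rpl41 and Rps27), against 1.81% of all features lower and 30.1% higher.

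This count of 6 depends on the fit and on single libraries. The labels state no pairs, and the numbers were taken as pairs by a rule on correlations. With the number as a block 13 members were lower, among them all 6 (15.5%, against 8.60% of all features in the same fit). With a block within each RNA fraction, added after the data were seen, 39 were lower, again with all 6 (46.4%, against 11.7%). On the relative scale 1 member, Rpl41, was higher with either block, by 1.28 and 1.33 on the log2 scale. Without IFNG polysome replicate 1 there were 41 lower members (48.8%, against 9.25% of all features). Without IFNG polysome replicate 3 there were 0, against 4.06% of all features. Leaving out IL4 polysome replicate 2 or 3 left 1 (1.19%, against 4.25 and 3.28% of all features). Leaving out IFNG total replicate 2, which is in neither group of this comparison, gave 3 (3.57%, against 5.86% of all features). The members' median went from -1.40 without IFNG polysome replicate 1 to -0.49 without IFNG polysome replicate 3, the library with the highest Lars2 share. Leaving Lars2 out of the table gave 3 lower members (3.57%, against 5.4% of all features). DESeq2 called 13 of the 83 members with an adjusted p (15.7%, against 8.78% of all features).

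**Figure D5:**
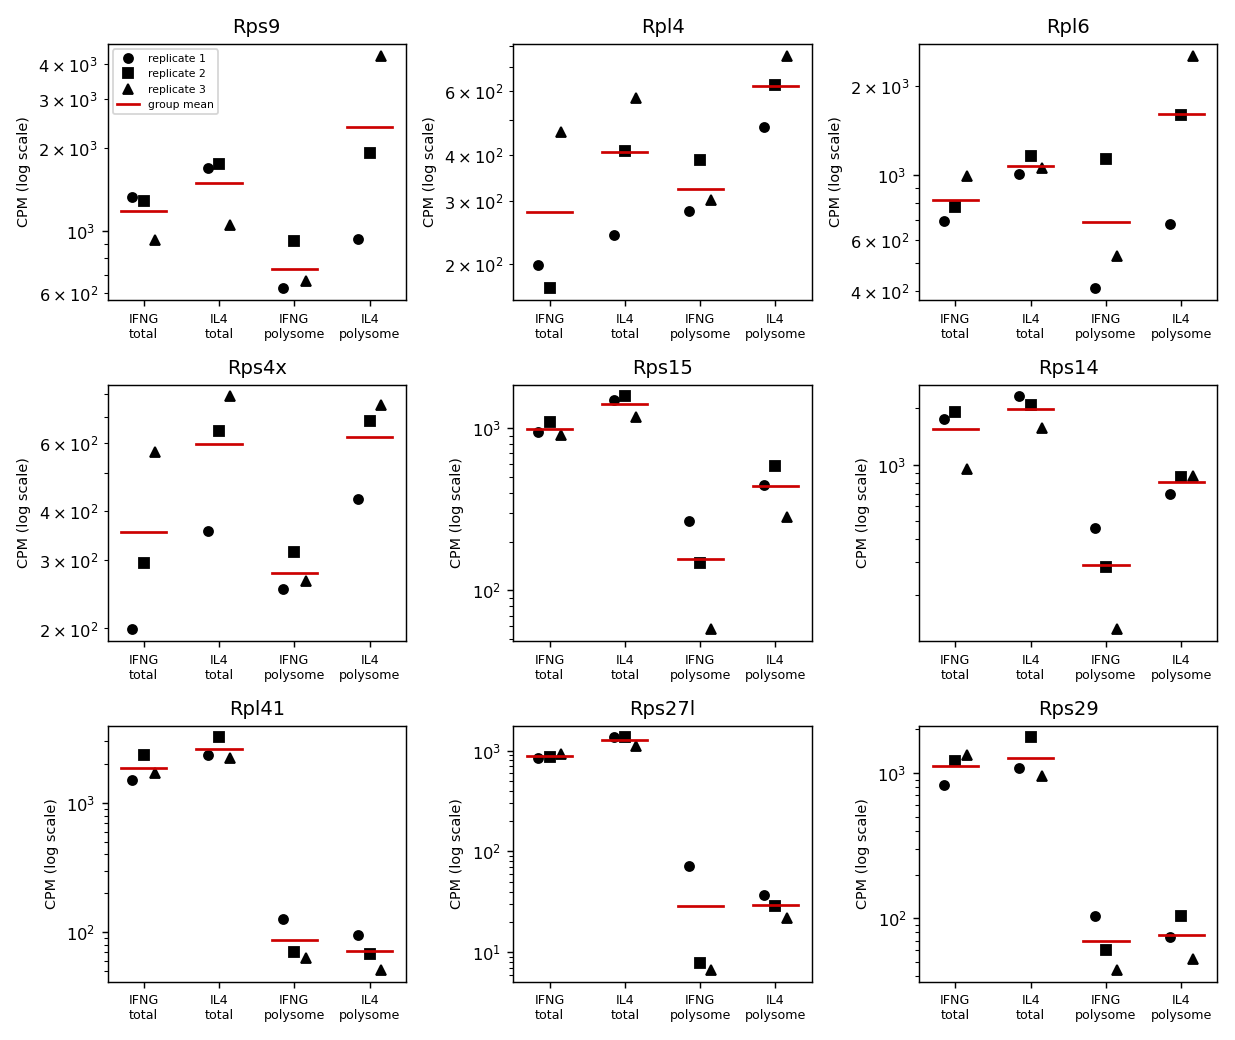
CPM (y axis, log scale, own range in each panel) of 9 members in the 4 groups (x axis), with single libraries as symbols by replicate number and the group mean as a red line. Rpl41, Rps27l and Rps29 are lower in every polysome library than in every total library, Rpl4, Rpl6 and Rps4x overlap between the fractions in both polarizations, Rps9 overlaps with IL4 and not with IFNG, and Rps9, Rps14 and Rps15 are lower on IFNG than on IL4 polysomes.

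Whether polysome association itself differed between the polarizations was tested as the interaction of both factors. No feature of the 10421 was called by edgeR (0.0% higher, 0.0% lower), so no member was, and DESeq2 called 0 members. At an unadjusted p under 0.05 there was 1 member lower with IFNG (1.19%, against 1.09% of all features), a share close to the background. That member was Rpl27 (-1.18 ± 0.56, SE, on the log2 scale). The members' median was -0.51 against -0.10 for all features, and 77 of 84 were below 0, the lowest being Rps9 with -1.35 and the highest Rpl41 with 0.77. Leaving out IFNG polysome replicate 1 gave a median of -1.07, and leaving out IFNG polysome replicate 3 gave -0.08, so its size rested on those libraries.

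Large- and small-subunit genes had near equal medians in each comparison. The medians of the 51 large- and 32 small-subunit genes were -0.36 and -0.39 for IFNG against IL4 in total mRNA, and -0.86 and -0.87 on polysomes. For polysome against total mRNA they were -2.20 and -2.32 with IFNG, and -1.64 and -1.80 with IL4. With IFNG 44 of the 51 large-subunit and 28 of the 32 small-subunit genes were lower on polysomes, and with IL4 38 and 26. On polysomes between the polarizations, 2 of the 6 called were of the large and 4 of the small subunit. By summed reads the small subunit took 40.6, 40.3 and 41.8% of the member reads in IFNG total mRNA and 40.7, 41.5 and 42.1% in IL4 total mRNA. On polysomes it took 42.7, 44.9 and 46.9% with IFNG and 45.1, 45.2 and 51.1% with IL4, higher in all 6 polysome libraries than in all 6 total libraries. Rps9 alone held 24.4, 22.1 and 18.1 per 1000 member reads in IL4 total mRNA and 51.2, 67.6 and 181 on IL4 polysomes. The shift in summed reads was not tested.

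Several members have paralogs, whose reads may be split between copies. Rpl22 was lower on polysomes (-2.36 with IFNG, -2.18 with IL4), as was its paralog Rpl22l1 (-3.17 and -2.51), which had 23.9, 0.21 and 2.59 CPM on IFNG polysomes, spread over a wide range. Rpl7 fell by 1.91 with IFNG and had -1.44 with IL4 without passing, and Rpl7l1, a nucleolar relative, fell by 1.45 and 1.35. Rpl36al passed in neither (-1.31 and -0.63), whereas Rpl36a fell by 2.20 and 1.83. The 3 untested members were the tissue-restricted paralogs Rpl10l, with 0 reads in all 12 libraries, Rpl39l, with 65, and Rpl3l, with 21. For Rpl10l, 3 counts, the limit that 0 allows, correspond to 0.136 to 1.17 CPM in a library, counting error only. Rps19, which is often mutated in Diamond-Blackfan anaemia, fell by 2.69 and 2.18 on polysomes. Rpl38, known for its part in reading certain Hox messages, fell by 2.55 and 1.69.

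Fau and Rack1, ribosomal proteins whose names fall outside the rule, were lower on polysomes in both polarizations, Fau by 2.32 with IFNG and 1.36 with IL4, and Rack1 by 1.92 and 1.76, on the log2 scale. Other TOP messages, a list of 19 genes, divided. Most were translation factors, but Tpt1, Hnrnpa1, Npm1, Naca, Btf3 and Nap1l1 in the list are not. With IFNG 8 were lower and 1 higher, and with IL4 7 lower and 1 higher (42.1 and 36.8% lower, against 17.0 and 15.9% of all features). The medians were -0.22 and -0.24. Lower were, among others, Tpt1 (-2.61 and -2.18), a growth-related TOP message, and the elongation factor subunits Eef1b2 (-2.07 and -1.99), and higher was Eif3a (1.32 and 1.60), an initiation factor subunit. Of 35 ribosome biogenesis factors, 1 was higher and 7 lower with IFNG (2.86 and 20.0%) and 4 higher and 5 lower with IL4 (11.4 and 14.3%), against 8.93 and 17.0% of all features with IFNG and 13.2 and 15.9% with IL4, with Nop10, of the box H/ACA particle, lower in both (-2.43 and -2.08). Of 15 regulators of TOP messages, 1 was higher and 2 lower with IFNG (6.67 and 13.3%) and 4 higher and 2 lower with IL4 (26.7 and 13.3%). Larp1 rose in both (1.43 and 1.36), and Eif4ebp1, the cap-binding inhibitor controlled by mTOR, fell in both (-2.29 and -1.48). Between the polarizations 0 genes of these 4 lists were called in total mRNA or on polysomes by edgeR. At an unadjusted p under 0.05 there was 1 in total mRNA, and there were 5 on polysomes, from lists of 3, 19, 35 and 15 tested genes. Of all 10421 features, 1271 were higher and 965 lower in total mRNA at that unadjusted p, and 1384 and 1424 on polysomes.

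Members with and without the CTTTC core at the start, 29 and 34 tested genes, had near equal medians within each polarization and between the polarizations. With IFNG the median log2 fold change of polysome against total mRNA was -2.29 with the core and -2.22 without, and with IL4 -1.69 and -1.73. For IFNG against IL4 it was -0.86 and -0.84 on polysomes, and -0.35 and -0.39 in total mRNA. The medians lay further apart for the difference of polysome association between the polarizations. They were -0.59 with the core (quartiles -0.77 and -0.37) and -0.40 without (-0.62 and -0.19), and this gap was not tested. Among the sequences shown above, Rpl41, Rpl39 and Rps2, with large decreases on polysomes, had no CTTTC within 40 bases of the start. Rps9 and Rps4x, with no such decrease called, had none either. Rpl4 and Rpl6, also with no decrease called, had one outside the 30 bases printed. Only this exact string was searched, and the Rps9 window holds another run of pyrimidines. The split by CTTTC therefore does not separate TOP messages from others.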

How the data were processed

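Each library's file gives whole-number counts per gene symbol, deposited without normalization, together with TMM-normalized log2 values from the authors, per the file headers. The authors' log2 values were given for 84 of the 87 members and were not tested. Per the submitters' processing notes, the tools were HISAT2 (also written HISAT) and limma, with no version, and the build was mm10. Not given in the sources used here: the counter, whether it used strand, how it treated reads with several matches, and the annotation. Ribosomal protein genes have many processed copies in the genome, so their levels, and those of paralogs and joined features, are uncertain. Positions come from the RefSeq annotation of GRCm38.p6.

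Features were kept with filterByExpr, and 10421 were tested. Counts were fitted in R 4.3.3 with edgeR 4.0.16: TMM scaling, 1 robust quasi-likelihood model with 4 group means over the 12 libraries, and Benjamini-Hochberg adjustment over all tested features at 0.05. A second fit set each library size to the summed member counts. The SE is the size of the log2 fold change divided by the square root of F. Levels are CPM on TMM-scaled libraries, except that the cell type markers and the CPM of 3 counts use total counts without TMM scaling. No test was made over the member list. Levels were not compared between genes, since exon lengths were not used here. Total counts were 2563955 to 22014162, and 3 counts correspond to 0.136 to 1.17 CPM, which limits counting error only. The fitting step was tested on simulated data.

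The replicate numbers were taken as pairs where the deviations of same-numbered libraries from their group means correlated above 0.1 in every pair. This held for IFNG against IL4 in total mRNA (0.19 to 0.64) and on polysomes (0.10 to 0.27), but not for polysome against total mRNA (-0.01 to 0.33 with IFNG and 0.02 to 0.27 with IL4). Within a fraction, most pairs of unlike number were negative. However, IFNG total 2 with IL4 total 1 had 0.30, and IFNG polysome 1 with IL4 polysome 2 had 0.12. The rule therefore does not establish pairs. Total and polysome mRNA were parts of the same cell populations, so low correlations do not show those libraries to be unpaired. The main fit used no pairs. Alternatives were DESeq2 1.42.0, RLE size factors, Lars2 left out, no filter (1 read), a mean of at least 10 CPM, libraries thinned to 2563955 counts, replicate blocks, each library left out, joined features left out and, for the relative scale, the geometric mean of the members. Both polysome libraries numbered 3 left out and a block within each RNA fraction were added after the data were seen.

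The members and lists were chosen with earlier results of these data known. Named were every called member of a comparison where 12 or fewer were called, otherwise the 6 with the largest change in each direction, the highest and the lowest member of each comparison, and a fixed set of stalk, paralog and frequently studied genes. From the other lists up to 4 called genes were named. Results for a few genes that the rule names are not reported here, although they were tested and counted. The rule's clause on the highest and lowest levels per length was not used.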

Additional observations from a re-analysis of the deposited data

How the results depend on the processing

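The counts of members lower on polysomes than in total mRNA were within 1.5 times of those reported under every alternative run, except that leaving out one library at a time gave 42 to 67 with IL4 (61 to 75 with IFNG). With the replicate block they were 71 with IFNG and 65 with IL4, and with a block by preparation 71 and 63. Shares of all features called in these alternative fits are not given here. The numbers did not meet the rule for pairs here, although both fractions came from the same cell populations. The 6 members lower with IFNG on polysomes became 13 with DESeq2 and 13 with the replicate block. The count was 39 with the replicate block within each RNA fraction, 3 with Lars2 left out and 0 without both polysome libraries numbered 3. Of all features, 8.78, 8.6, 11.7, 5.4 and 2.41% were called lower in these fits, in this order. Leaving out one library at a time gave 0 to 41 members, and 3.28 to 9.25% of all features. In this comparison relative to the summed members, where 0 were called, either replicate block gave 1 higher, and leaving out one library gave 0 to 1 higher and 0 to 1 lower. Relative to the summed members, polysome against total mRNA with IFNG had 5 to 12 members higher and 4 to 17 lower when one library was left out. The large-subunit median minus the small-subunit median in that comparison, 0.13, went from -0.059 to 0.15, the lowest without IFNG total replicate 3. No called result changed direction, the replicate block moved no other count of calls by over 1.5 times, and the causes of these changes were not tested. Leaving out Lars2 moved the median of all features by over 0.1 on the log2 scale in 3 comparisons, from -0.06 to 0.06 for IFNG against IL4 on polysomes, from 0.06 to -0.13 for polysome against total mRNA with IL4 and from -0.10 to 0.01 for the difference. Depth limits the members of the lowest levels most: IFNG polysome replicate 3 held 18163 member reads in all.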
